A study of Homo sapiens with 4 samples.

Results

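Transcripts of 7 S100 genes and of the lipocalin-2 gene were measured in the Siglec-14+ and Siglec-5+ THP-1 sublines with or without bacterial stimulation. The genes are S100A4, S100A6, S100A8, S100A9, S100A10, S100A11, S100A12 and LCN2, taken as every probe set that the platform's annotation lists for 1 of these genes alone. This gave 11 probe sets for 8 genes, of 54675 probe sets and 19775 named genes on the array. THP-1 is a human monoblastoid leukemia line, and the sublines express either Siglec-14 or Siglec-5, as models of monocytes from people with the SIGLEC14 gene and from people who lack it. The sources used here do not say whether a subline derives from 1 clone, nor which promoter drives its Siglec. The cells were kept for 6 h in serum-free macrophage medium with nontypeable Haemophilus influenzae (NTHi) that had been killed by heat, 100 bacteria to a cell, or without it. The 4 conditions are Siglec-14,NTHi[+] (Siglec-14/THP-1 with NTHi), Siglec-14,NTHi[-] (Siglec-14/THP-1 without NTHi), Siglec-5,NTHi[+] (Siglec-5/THP-1 with NTHi) and Siglec-5,NTHi[-] (Siglec-5/THP-1 without NTHi). Each condition has 1 array (GeneChip U133 Plus 2.0, human) and no replicate, which leaves a single signal without an error and a pair of arrays without a test.

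Most S100 proteins are small calcium-binding proteins with EF-hand motifs that work as dimers. They act inside the cell on the cytoskeleton and membranes and, once released, on receptors of other cells. S100A8 and S100A9 pair as calprotectin, which fills the cytoplasm of neutrophils and monocytes, withholds zinc and manganese from microbes and can act on TLR4. S100A12, a relative of this pair, binds the receptor RAGE. Lipocalin-2 is an antibacterial protein of neutrophil granules, epithelia and activated macrophages. It captures the siderophores with which bacteria collect iron, and its gene is a known target of NF-κB together with the nuclear protein IκBζ.

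The sums of the signals lay between 12735500 and 14047100 over the arrays, and the median signals between 15.1 and 16.5. Signals are on a linear scale, and signals of different probe sets are not comparable in level. A signal under the median of all signals, 16.02, was treated as below the floor. A fold against such a signal is given as "at least", computed against the floor. Probe sets that reached the 75th percentile of all signals, 105, are called bright. Among them the log2 ratio of an NTHi[+] array to its NTHi[-] array had a median of 0.09 and an SD of 0.23 in Siglec-14/THP-1, and a median of -0.11 and an SD of 0.26 in Siglec-5/THP-1. The corresponding ratio of Siglec-14/THP-1 to Siglec-5/THP-1 had a median of 0.04 and an SD of 0.52 with NTHi, and a median of -0.17 and an SD of 0.50 without NTHi. Monocyte markers reached the floor for 8 of 11 genes matched here, with a summed signal of 11847 to 13148 over the arrays, while CD14, FCGR1A and MPEG1 stayed below it on all 4 arrays. Neutrophil markers reached the floor for 3 of 7 genes, with LTF, CEACAM8, CXCR1 and FCGR3B below it on all arrays, and their summed signal was 294 to 353. Of 3 fibroblast markers only COL1A1 reached the floor, with 257 in Siglec-14,NTHi[+], 266 in Siglec-14,NTHi[-], 132 in Siglec-5,NTHi[+] and 141 in Siglec-5,NTHi[-]. The only SIGLEC5 probe set had signals of 19.5, 21.3, 21.6 and 4.13 in the same order. As the position of its probes relative to the introduced Siglec sequence is unknown here, it does not check the labels.

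The promoters of LCN2 and S100A10, the genes with the widest ranges of signal, and of S100A9 and S100A8, the partners of calprotectin, are printed here from RefSeq (GRCh38.p14) as a reference for the values. All 8 genes were matched, with 3 start sites for S100A8 and 1 for each of the others. Each window runs from 250 bases before the start of the gene to 50 bases from it on, 5′ to 3′. Capitals mark matches, on either strand, of 4 motifs: the NF-κB-type motif (GGGA, any 4 bases, CC), the C/EBP-type TTGCNNAA, the TATA box TATAAA and the GC box GGGCGG. Where matches overlap, the run of capitals covers them together.
LCN2 (chr9:128149203-128149502, plus strand): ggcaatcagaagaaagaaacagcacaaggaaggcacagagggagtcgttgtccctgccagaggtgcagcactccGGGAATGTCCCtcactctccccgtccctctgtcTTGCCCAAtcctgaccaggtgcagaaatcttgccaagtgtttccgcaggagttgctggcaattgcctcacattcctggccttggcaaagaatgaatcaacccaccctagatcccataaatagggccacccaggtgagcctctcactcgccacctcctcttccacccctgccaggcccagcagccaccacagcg
S100A10 (chr1:151993810-151994109, minus strand): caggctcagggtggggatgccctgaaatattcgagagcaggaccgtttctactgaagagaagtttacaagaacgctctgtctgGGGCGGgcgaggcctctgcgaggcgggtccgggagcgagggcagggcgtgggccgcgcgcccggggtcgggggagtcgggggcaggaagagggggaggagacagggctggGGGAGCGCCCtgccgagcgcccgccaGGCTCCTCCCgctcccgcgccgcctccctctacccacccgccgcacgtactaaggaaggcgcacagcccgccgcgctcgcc
S100A9 (chr1:153357604-153357903, plus strand): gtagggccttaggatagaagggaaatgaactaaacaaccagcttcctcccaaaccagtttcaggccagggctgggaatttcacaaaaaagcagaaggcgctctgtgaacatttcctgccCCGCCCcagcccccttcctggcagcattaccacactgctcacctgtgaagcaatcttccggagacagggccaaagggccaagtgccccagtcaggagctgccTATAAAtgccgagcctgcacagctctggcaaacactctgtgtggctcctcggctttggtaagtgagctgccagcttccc
S100A8 (chr1:153391024-153391323, minus strand): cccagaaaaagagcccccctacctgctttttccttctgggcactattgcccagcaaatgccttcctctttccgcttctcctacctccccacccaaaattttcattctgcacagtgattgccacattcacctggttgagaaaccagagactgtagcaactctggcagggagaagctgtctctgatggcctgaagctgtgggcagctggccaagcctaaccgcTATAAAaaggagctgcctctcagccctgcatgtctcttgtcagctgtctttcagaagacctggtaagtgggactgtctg
Of 35116 promoter windows of this length, 25.6% hold the NF-κB-type motif, 10.5% the C/EBP-type motif, 11.5% the TATA box and 45% the GC box. The LCN2 window holds the NF-κB-type letters on both strands in overlapping matches that start 176 and 175 bases before the gene, and a C/EBP-type match that starts 143 bases before it. The S100A10 window, 71.7% G or C, holds 2 NF-κB-type matches and a GC box, and no TATA box. The S100A9 and S100A8 windows each hold TATAAA starting 29 bases before the gene. For S100A8 the window shown is the one of its 3 windows with TATAAA near this distance. Of the other genes, the S100A4 window holds an NF-κB-type match and a TATA box that starts 31 bases before the gene. S100A6 holds 3 GC boxes, and S100A11 a GC box and a C/EBP-type match. S100A12 holds a C/EBP-type match and the letters TATAAA, which start only 8 bases before the gene. A match describes the letters of a window and does not show that a factor binds there.

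**Figure D1:**
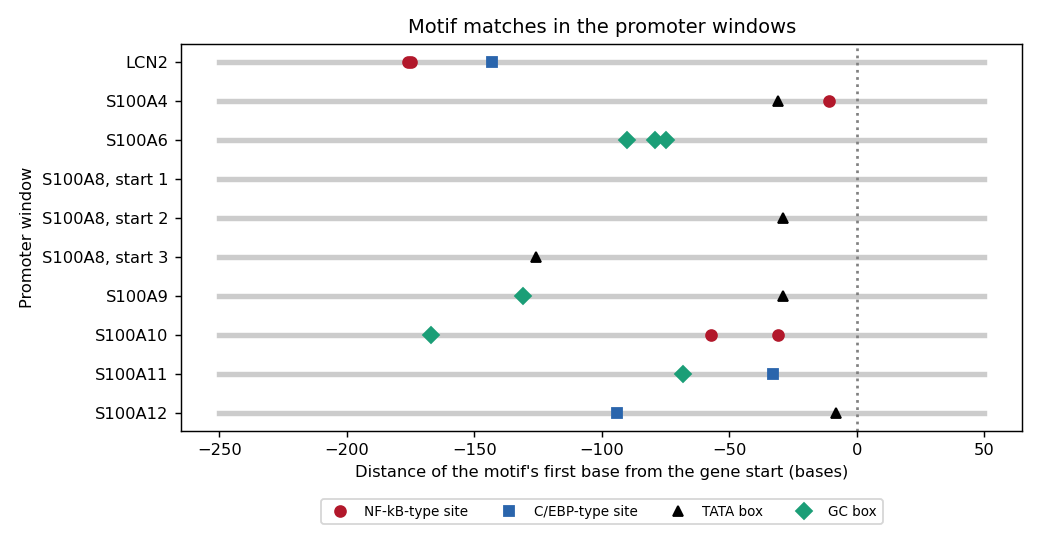
Matches of the 4 motifs in the 10 promoter windows of the 8 genes, with the distance of the motif's first base from the gene start in bases on the x axis and a row for each window. LCN2 has the NF-κB-type letters 176 and 175 bases before its start. S100A9 has a TATA box 29 bases before its start, and so has S100A8 at its second start, but not at its other starts.

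LCN2 had its only signal above the floor in stimulated Siglec-14/THP-1. Its signal was 46.2 in Siglec-14,NTHi[+], 7.11 in Siglec-14,NTHi[-], 15.1 in Siglec-5,NTHi[+] and 14.4 in Siglec-5,NTHi[-]. The array of stimulated Siglec-14/THP-1 thus stood apart from the other arrays, whose signals have no order because they lie below the floor. In Siglec-14,NTHi[+] LCN2 was at least 2.88-fold higher, both against Siglec-14,NTHi[-] and against Siglec-5,NTHi[+]. With signals as they stand the ratios were 6.49 and 3.07, both past the 3-fold threshold. The ratio of 3.07, against Siglec-5,NTHi[+], fell under 3-fold with each other scaling of the arrays (log2 ratios of 1.47 to 1.57). By the probe set with the highest mean signal per gene, LCN2 was the only 1 of the 8 genes past 3-fold with NTHi in Siglec-14/THP-1. No gene of the 8 was past it in Siglec-5/THP-1. A dimmer probe set of S100A10 was also past 3-fold in Siglec-14/THP-1, with a ratio of 3.20. Like LCN2, that probe set was above the floor in Siglec-14,NTHi[+] alone, with a signal of 32.0. Of all probe sets with the higher signal of the pair at or above the floor, 2.1% were past 3-fold upward with NTHi in Siglec-14/THP-1 (2.21% downward), and 2.17% in Siglec-5/THP-1 (2.5% downward). Of those with a higher signal of 16.02 to 105, the range of LCN2, 3.85% were past 3-fold upward in Siglec-14/THP-1. With signals below the floor raised to it 0.164% were, and LCN2, at 2.88-fold, was not. The signal is a level in a population of cells, so fewer cells with the transcript and less transcript per cell cannot be told apart.

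The log2 NTHi response of LCN2 was 2.70 in Siglec-14/THP-1 and 0.06 in Siglec-5/THP-1, a difference of 2.64 that rests on 3 signals below the floor. The 4 arrays leave no degree of freedom to test such a difference. By the same measure 5.06% of 31981 probe sets differed by at least 3-fold in that direction. In the limma fit over all 4 arrays, which has cell line and NTHi as additive terms, LCN2 had an NTHi term of 1.38 as a log2 difference (standard error 0.58, adjusted p = 0.538, and below 0.05 before adjustment), and its line term was 0.30 (standard error 0.58, adjusted p = 0.869). Neither term passed. The adjusted p of the NTHi term was 0.256 to 0.9998 over the alternatives.

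**Figure D2:**
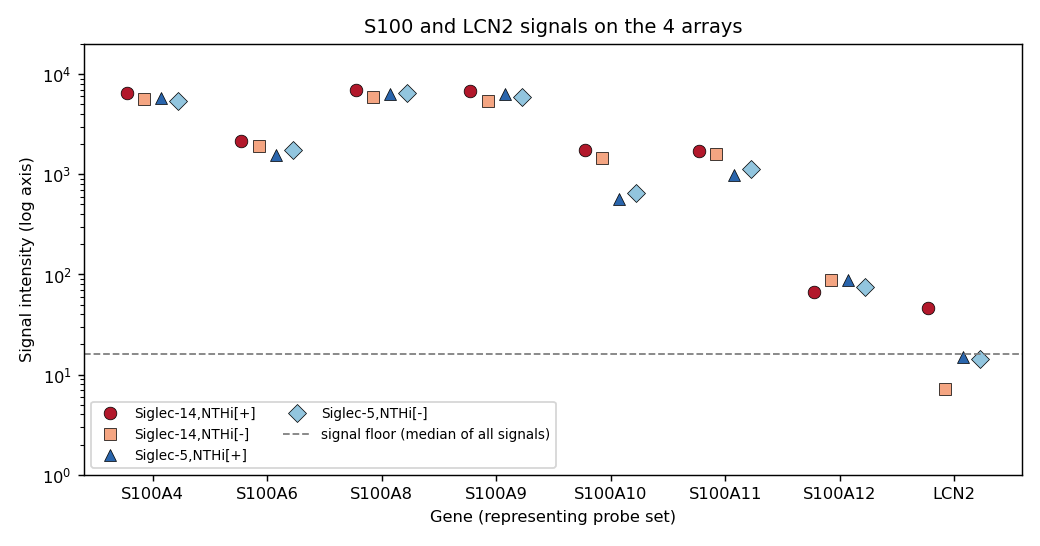
Signal intensity (log axis) of the representing probe set of each of the 8 genes on the 4 arrays, 1 point per array, with the floor of 16.02 as a dashed line. LCN2 crosses the floor only in Siglec-14,NTHi[+] (46.2), S100A10 is higher on both Siglec-14/THP-1 arrays (1745 and 1463) than on both Siglec-5/THP-1 arrays (568 and 656), and S100A4, S100A8 and S100A9 lie close together on all 4.

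Genes around LCN2 were examined from lists of its receptors and partner, its regulators, other lipocalins and granule genes. MMP9, the gelatinase that forms a complex with lipocalin-2, had signals of 2304 in Siglec-14,NTHi[+], 1282 in Siglec-14,NTHi[-], 268 in Siglec-5,NTHi[+] and 194 in Siglec-5,NTHi[-]. It rose with NTHi in the shared fit (log2 term 0.66, standard error 0.15, adjusted p = 0.00317) and was higher in Siglec-14/THP-1 (2.91, standard error 0.15, adjusted p = 2.24e-78). MMP9 and LCN2 were thus both highest in Siglec-14,NTHi[+], while MMP9, unlike LCN2, was above the floor on every array. The lipocalin-2 receptor gene SLC22A17 had signals of 14.6 to 17.7, and LRP2, the endocytic receptor megalin, stayed below the floor on all arrays. NFKBIZ, which encodes IκBζ, rose with NTHi by a term of 2.31 (standard error 0.16, adjusted p = 1.68e-45). Its signals were 784 in Siglec-14,NTHi[+] against 150 in Siglec-14,NTHi[-], and 933 in Siglec-5,NTHi[+] against 199 in Siglec-5,NTHi[-]. The NFKBIZ signal was thus raised in both sublines. LCN2 passed the floor in Siglec-14,NTHi[+] alone, but its signal of 15.1 in Siglec-5,NTHi[+] lay just below the floor. The part of NFKBIZ in the LCN2 signals was not tested. Of the 9 regulators listed for LCN2, S100A8 and S100A9, 2 rose with NTHi, NFKBIZ and NFKB1, 0 fell and 7 did not pass, where 0.99% of all genes rose and 0.294% fell. The C/EBP genes CEBPA, CEBPB, CEBPD and CEBPE were above the floor on all arrays and did not pass in either term.

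Of 16 other lipocalin genes, 11 reached the floor and 0 passed for either term by their representing probe sets. A dimmer probe set of PTGDS, which encodes the lipocalin prostaglandin D synthase, was lower in Siglec-14/THP-1 (-2.71, standard error 0.71, adjusted p = 0.00339), with 3.78 and 7.15, both below the floor, in Siglec-14/THP-1, against 30.8 and 37.4 in Siglec-5/THP-1. The neutrophil granule genes were largely below the floor, with 8 of 12 below it on all arrays, among them LTF, OLFM4 and CRISP3. Of the 4 that reached it, HP, which encodes haptoglobin, fell with NTHi by 0.68 as a log2 term (standard error 0.15, adjusted p = 0.00205). Its signals were 398 in Siglec-14,NTHi[+] against 623 in Siglec-14,NTHi[-], and 394 in Siglec-5,NTHi[+] against 647 in Siglec-5,NTHi[-]. MMP8, neutrophil collagenase, was higher in Siglec-14/THP-1 (1.39, standard error 0.46, adjusted p = 0.0355), with 36.3 and 32.7 on the Siglec-14/THP-1 arrays and signals below the floor on the Siglec-5/THP-1 arrays. A second MMP8 probe set, with 23.7 and 21.2 in Siglec-14/THP-1 and again below the floor in Siglec-5/THP-1, did not pass.

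S100A8 and S100A9, the partners of calprotectin, were bright on all 4 arrays and varied little. S100A8 had signals of 6880 in Siglec-14,NTHi[+], 5952 in Siglec-14,NTHi[-], 6360 in Siglec-5,NTHi[+] and 6521 in Siglec-5,NTHi[-]. S100A9 had 6772, 5337, 6292 and 5961 in the same order. For both genes, at the deposited scale, Siglec-14,NTHi[+] was the highest array and Siglec-14,NTHi[-] the lowest, and the arrays of the sublines overlapped. The highest signal was 1.16 times the lowest for S100A8 and 1.27 times for S100A9. The NTHi term of S100A9 was 0.21 (standard error 0.18, adjusted p = 0.9998) and that of S100A8 was 0.09 (standard error 0.18, adjusted p = 0.9998). A dimmer probe set of S100A8 read 86.6, 78.2, 84.9 and 73.7 in the same order of arrays.

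The call for S100A9 depended on the scaling of the arrays. With each array scaled to the same sum of signals, the measure that the study's methods name, the NTHi term of S100A9 was 0.18 (standard error 0.04) and passed (adjusted p = 0.000881). Over the alternatives the adjusted p ran from 0.000881 to 0.99996, and 3 of 9 passed. S100A8 passed under 0 of 9. S100A4 behaved like S100A9, with an NTHi term of 0.13 (standard error 0.04, adjusted p = 0.0392) at equal sums and adjusted p-values from 0.0142 to 0.99996, of which 2 of 9 passed. Over all probe sets the share called at the deposited scale was 0.688% higher and 0.231% lower with NTHi (220 and 74 probe sets), and at equal sums the calls were 600 higher and 674 lower.

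S100A4, a binding partner of nonmuscle myosin, was bright throughout. Its signals were 6424 in Siglec-14,NTHi[+], 5595 in Siglec-14,NTHi[-], 5822 in Siglec-5,NTHi[+] and 5340 in Siglec-5,NTHi[-]. In each subline the stimulated array was the higher, by 1.15-fold in Siglec-14/THP-1, where quantile normalization left a log2 ratio of -0.0022, and by 1.09-fold in Siglec-5/THP-1. Neither the NTHi term (0.16, standard error 0.17) nor the line term (0.10, standard error 0.17) passed. S100A12 was dim, with 66.3 in Siglec-14,NTHi[+], 87.2 in Siglec-14,NTHi[-], 89.0 in Siglec-5,NTHi[+] and 74.5 in Siglec-5,NTHi[-]. With NTHi it was lower in Siglec-14/THP-1 and higher in Siglec-5/THP-1, and its terms of -0.07 for NTHi and -0.10 for line (standard error 0.22 each) did not pass. Over the alternatives S100A12 passed in 0 of 8 for either term.

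**Figure D3:**
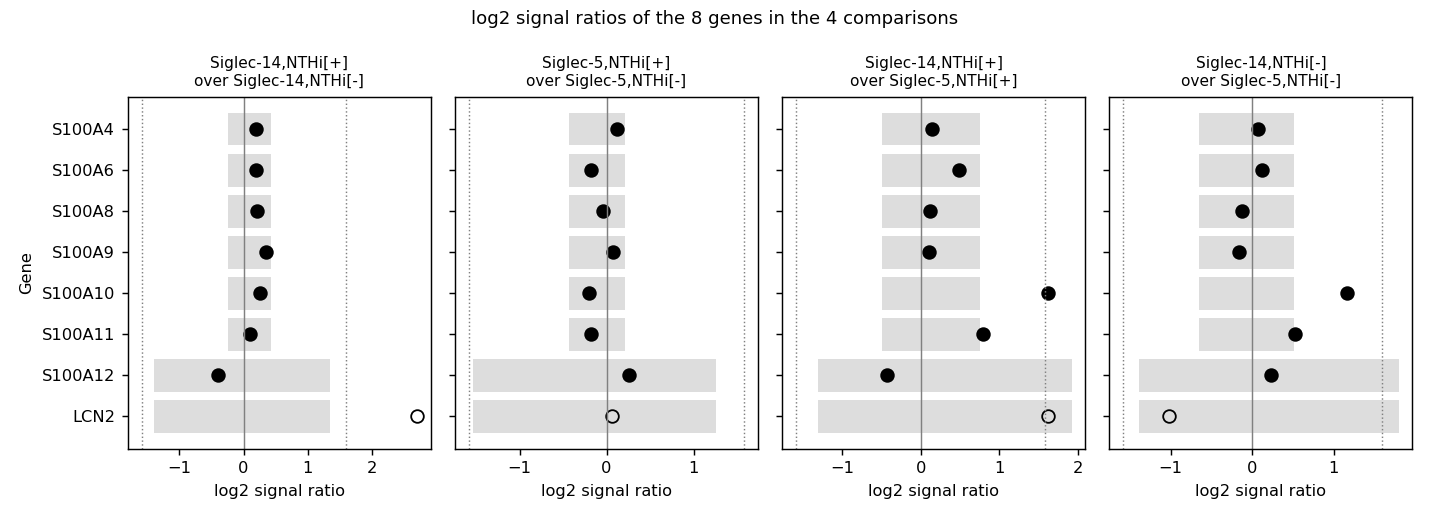
log2 signal ratio (x axis) of each of the 8 genes (rows) in the 4 comparisons (panels). Open circles rest on a signal below the floor of 16.02, grey bars span the 5th to the 95th percentile of all probe sets of like brightness (bright, or 16.02 to 105), and dotted lines mark 3-fold. LCN2 (2.70) lies outside the bar with NTHi in Siglec-14/THP-1, and S100A10 (1.62 and 1.16) and S100A11 (0.80 and 0.52) lie outside it between the sublines.

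S100A10 and S100A11 were higher in Siglec-14/THP-1 than in Siglec-5/THP-1, with NTHi and without it. S100A10, also called p11, joins annexin A2 at the plasma membrane and binds plasminogen there. Its signals were 1745 in Siglec-14,NTHi[+] and 1463 in Siglec-14,NTHi[-], against 568 in Siglec-5,NTHi[+] and 656 in Siglec-5,NTHi[-]. The sublines did not overlap, and the ratio was 3.07 with NTHi and 2.23 without it. S100A11, which binds annexin A1, had 1718 in Siglec-14,NTHi[+] and 1608 in Siglec-14,NTHi[-], against 989 in Siglec-5,NTHi[+] and 1119 in Siglec-5,NTHi[-]. Its sublines did not overlap either, with ratios of 1.74 with NTHi and 1.44 without it. The line term was 1.39 for S100A10 (standard error 0.15, adjusted p = 9.99e-18) and 0.66 for S100A11 (standard error 0.15, adjusted p = 0.000482) in the limma fit. These were 2 of the 8 genes, both higher and 0 lower. Of 13933 genes tested by the probe set with the highest mean signal, 6.24% were called higher and 4.95% lower. Of all probe sets tested, 4.69% were called higher and 3.81% lower (1501 and 1217 probe sets). The NTHi term of S100A10 was 0.02 and that of S100A11 was -0.04 (standard error 0.15 each), and neither passed.

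The line calls of S100A10 and S100A11 passed under 8 of 9 alternatives and were lost without the intensity trend of the variances. Without it the adjusted p was 0.282 for S100A10 and 0.415 for S100A11, and 0 probe sets passed in all (3740 at an unadjusted p under 0.05). At the deposited scale with the trend, each standard error comes from the fitted trend of variance with intensity, as the prior degrees of freedom are infinite. No gene has replicates of its own. However small, these p-values measure no spread between cultures or between independently made sublines. Over all alternatives the adjusted p of S100A10 ran from 7.62e-38 to 0.282 and its line term from 1.32 to 1.46. That of S100A11 ran from 2.40e-17 to 0.415, with a term of 0.59 to 0.73. At the 3-fold threshold, S100A10 and LCN2 were past it between the stimulated sublines and 0 genes were between the nonstimulated ones. Of all probe sets, 4.09% were past it upward with NTHi (1.9% downward) and 3.61% without NTHi (2.12% downward). With NTHi it was 1.34% of bright probe sets, the range of S100A10. Among probe sets that reached the floor but were not bright, the range of LCN2, it was 6.67%. The LCN2 log2 ratio of 1.62 lay below the 95th percentile of that range, 1.92. With signals below the floor raised to it, 1.14% of all were past 3-fold upward with NTHi, and LCN2, at 2.88-fold, was not. The S100A10 ratio of 3.07 lay just over this threshold and was under it when the arrays were scaled to equal sums (a log2 ratio of 1.56).

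S100A6, or calcyclin, had signals of 2166 in Siglec-14,NTHi[+] and 1896 in Siglec-14,NTHi[-], against 1542 in Siglec-5,NTHi[+] and 1740 in Siglec-5,NTHi[-]. Both Siglec-14/THP-1 arrays were above both Siglec-5/THP-1 arrays, by 1.41-fold with NTHi and 1.09-fold without it. Its line term of 0.31 (standard error 0.16, adjusted p = 0.264) did not pass at the deposited scale. With equal sums it was 0.35 (standard error 0.05, adjusted p = 2.47e-07), and over the alternatives the adjusted p ran from 2.47e-07 to 0.644 and 3 of 9 passed. S100A4 passed for the line term under 3 of 9 alternatives as well, with adjusted p-values of 0.00253 to 0.923. Second probe sets of S100A6 (3.25 to 19.8) and of S100A10 (2.18 to 32.0) were below the floor on 3 of the 4 arrays and above it in Siglec-14,NTHi[+] alone. Averaging such a probe set into the gene gave S100A10 log2 NTHi ratios of 0.97 in Siglec-14/THP-1 and -1.15 in Siglec-5/THP-1, against 0.25 and -0.21 on its bright probe set. COL1A1, the fibroblast marker above the floor, also differed between the sublines (0.94, standard error 0.17, adjusted p = 2.73e-06), while its other probe sets did not pass or were below the floor, and COL1A2 and COL3A1 were below the floor on all arrays. Of the 8 monocyte markers that reached the floor, 2 were higher in Siglec-14/THP-1 and 0 lower, with a median line term of 0.28. They were ITGAM, an integrin subunit (352.8 and 290.1 in Siglec-14/THP-1, against 167 and 198 in Siglec-5/THP-1, line term 0.81, adjusted p = 3.54e-05), and TYROBP, a signalling adaptor (376 and 329 in Siglec-14/THP-1, against 186 and 205 in Siglec-5/THP-1, line term 0.85, adjusted p = 9.99e-06). The part of these markers in the differences of S100A10, S100A11 and S100A6 was not tested.

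The binding partners of the S100 proteins were listed with their receptors. Of 14 genes, all of which reached the floor, 5 were higher in Siglec-14/THP-1 (1 of them, AGER, through a signal below the floor), 0 were lower and 9 did not pass. Of 13933 genes tested by their representing probe sets, 6.24% were higher and 4.95% lower for line. The 14 genes had a median line term of 0.50 against -0.03 over all genes tested. ANXA2, which encodes the annexin that holds S100A10, had 2570 in Siglec-14,NTHi[+] and 2361 in Siglec-14,NTHi[-], against 1501 in Siglec-5,NTHi[+] and 1613 in Siglec-5,NTHi[-] (line term 0.66, standard error 0.16, adjusted p = 0.000653). ANXA1, the annexin bound by S100A11, had 1343 and 1356 in Siglec-14/THP-1, against 559 and 685 in Siglec-5/THP-1 (line term 1.13, standard error 0.15, adjusted p = 1.21e-11). Both annexin genes thus ran in the same direction as the S100 gene whose product they bind, without overlap of the sublines. AHNAK, a large scaffold protein that binds the complex of S100A10 and annexin A2, had 398 and 418 in Siglec-14/THP-1, against 310 and 241 in Siglec-5/THP-1 (0.58, standard error 0.16, adjusted p = 0.00552). MYH9, the myosin heavy chain bound by S100A4, had 417 and 402, against 251 and 225 (0.79, standard error 0.16, adjusted p = 3.67e-05), whereas S100A4 itself did not pass. AGER, which encodes RAGE, was called higher in Siglec-14/THP-1 (adjusted p = 0.0426). Its call rests on a signal of 0.715 in Siglec-5,NTHi[+], below the floor, and the nonstimulated signals of 21.2 and 20.3 were alike. TLR4 (40.1 to 65.4) and the S100A6 partner CACYBP (3869 to 5120) did not pass. No gene of the 14 passed for NTHi in limma, and these counts are 0 without the intensity trend.

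**Figure D4:**
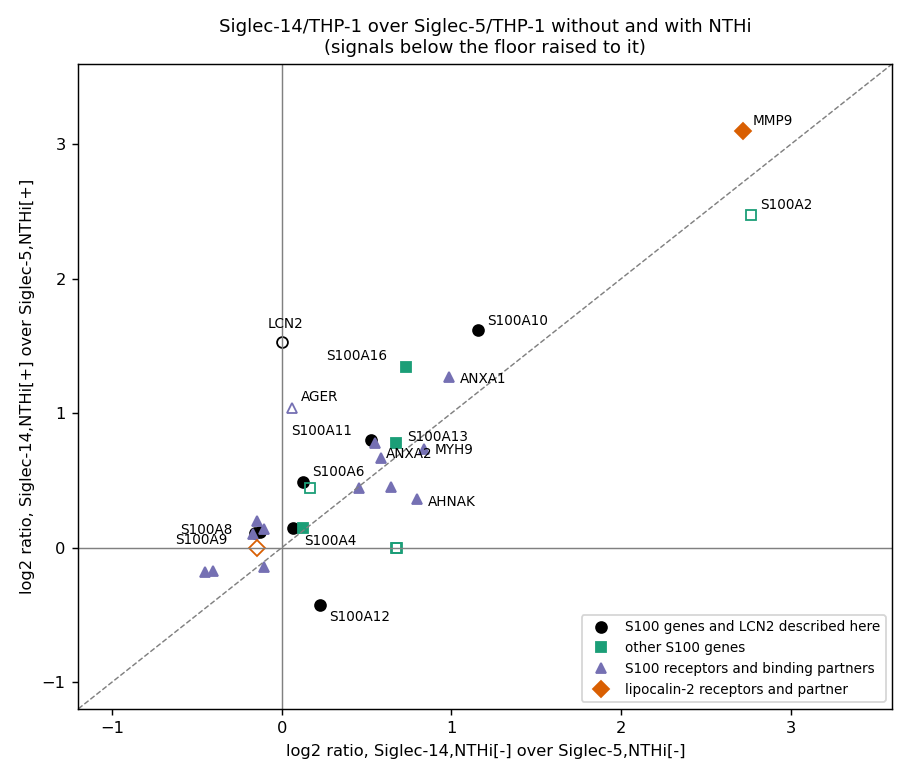
log2 ratio of Siglec-14/THP-1 to Siglec-5/THP-1 without NTHi (x axis) and with NTHi (y axis), for the 8 genes, the other S100 genes, the S100 receptors and partners and those of lipocalin-2, 1 point per gene with a signal at or above the floor on any array, with signals below the floor raised to it and such genes drawn open. The dashed line marks equal ratios. S100A10 lies to the upper right with ANXA1 and S100A11, MMP9 and S100A2 lie farther out, and LCN2 has a difference with NTHi only.

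The wider S100 family was measured with 13 further genes, of which 7 reached the floor and 6 stayed below it on all arrays. In the line term 3 of the 7 were higher in Siglec-14/THP-1, 0 were lower and 4 did not pass, against 6.24% higher and 4.95% lower over all genes, and 0 passed for NTHi. S100A2 had 109 on both Siglec-14/THP-1 arrays, against 19.6 in Siglec-5,NTHi[+] and 15.9, just below the floor, in Siglec-5,NTHi[-] (line term 2.63, standard error 0.28, adjusted p = 1.78e-18). S100A16 had 81.4 and 93.3 in Siglec-14/THP-1, against 32.2 and 56.3 in Siglec-5/THP-1 (1.03, standard error 0.24, adjusted p = 0.000475). S100A13 had 200.2 and 188 in Siglec-14/THP-1, against 117 and 118 in Siglec-5/THP-1 (0.73, standard error 0.18, adjusted p = 0.00136), while its dimmer probe set (19.1 to 26.9) did not pass. S100A2, S100A13 and S100A16 thus shared the direction of S100A10 and S100A11 without overlap of the sublines. S100P, encoded on another chromosome, had 241 to 282 and did not pass.

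All 7 S100 genes described here lie on chromosome 1, in a cluster of S100 genes, while LCN2 lies on chromosome 9. In the order of RefSeq, S100A10 and S100A11 come first, followed by S100A9, S100A12 and S100A8, and S100A6 and S100A4 lie farther on with S100A5 between them. Of the 16 S100 genes there, 13 reached the floor and S100A7, S100A5 and S100A3 did not. S100A5, between the bright genes S100A6 and S100A4, had 1.04 to 2.12 on the 4 arrays, and S100A12, between S100A9 and S100A8, had 66.3 to 89.0. The genes called higher in Siglec-14/THP-1 were S100A10 and S100A11 at one end of this order and S100A2, S100A16 and S100A13 toward the other. S100A9, S100A12, S100A8, S100A7A, S100A6 and S100A4, which did not pass, lie between them, though S100A6 and S100A4 each passed under 3 of 9 alternatives. Toward the far end S100A14, between S100A16 and S100A13, and S100A1, the last, reached the floor and did not pass (limma adjusted p = 0.51 and 0.287).

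**Figure D5:**
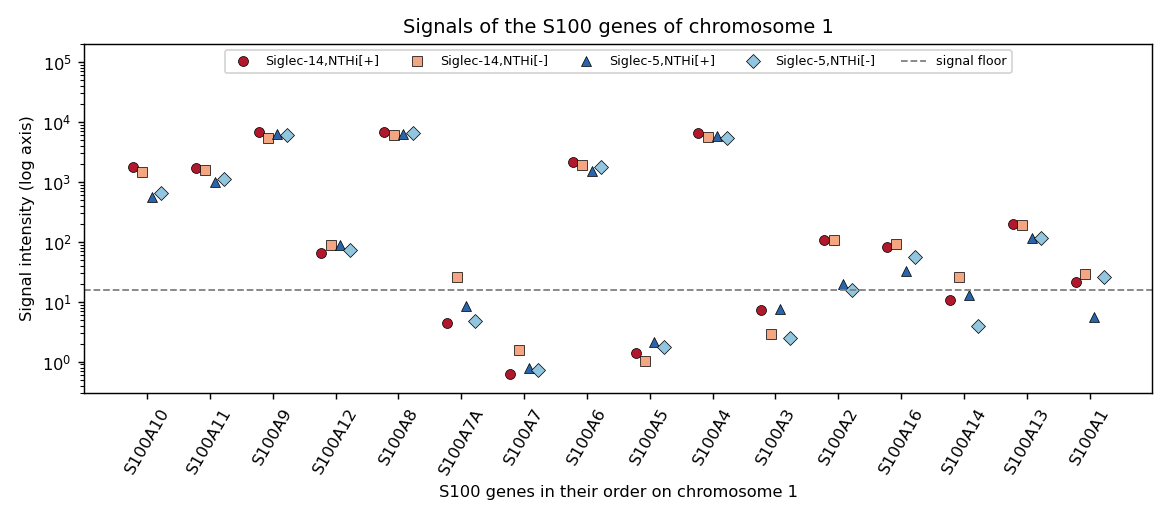
Signal intensity (log axis) of the 16 S100 genes of chromosome 1 in their order along it, evenly spaced, with 1 point per array and the floor of 16.02 as a dashed line. Levels of different genes are not comparable, and within a gene both Siglec-14/THP-1 arrays lie above both Siglec-5/THP-1 arrays for S100A10, S100A11, S100A6, S100A2, S100A16 and S100A13, but not for S100A9, S100A8, S100A12 or S100A4.

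The pattern of S100A10 over the 4 arrays was compared with those of other genes. Likeness was measured as the Euclidean distance between log2 signals centred on their mean over the 4 arrays, among 7335 genes that were bright on all of them. The nearest were GSN (distance 0.04), which encodes the actin-severing protein gelsolin, PPARD (0.07), a nuclear receptor of fatty acids, YPEL5 (0.09), MPP1 (0.14), a membrane-associated scaffold protein, and CD109 (0.16). GSN had signals of 1081 in Siglec-14,NTHi[+] and 911 in Siglec-14,NTHi[-], against 350 in Siglec-5,NTHi[+] and 418 in Siglec-5,NTHi[-]. Like S100A10, GSN was lowest in Siglec-5,NTHi[+] and highest in Siglec-14,NTHi[+], which follows from its choice as the nearest gene. How small the nearest distance among 7335 genes is for other bright genes was not computed. The measure is not given for LCN2, as 3 of its 4 signals lie below the floor. The other 6 genes spanned less than 1 on the log2 scale and were not compared.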

How the data were processed

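RNA of 4 cell samples, 1 per condition, was hybridized to GeneChip U133 Plus 2.0 arrays (human), from 250 ng of total RNA each. The authors used GeneChip Operating Software (GCOS, version not given in the sources used here) for quantification and deposited 1 signal intensity per probe set on a linear scale. The study's methods state standardization on the cumulative signal of all probes, but the deposited sums differ between arrays, so the intensities were used as deposited, with equal sums as an alternative. Detection calls were not used here. Probe sets were named with the platform's annotation, whose symbols were looked up in RefSeq through gene identifiers with 0 changes, and 41097 were listed for 1 gene, 1801 for several and 11777 for none. A gene is represented by its probe set with the highest mean signal. The 62 control probe sets were left out of tests.

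The fit used limma 3.58.1 in R 4.3.3 on log2 signals of 31981 probe sets with a signal at or above the floor on any array, with additive terms for cell line and NTHi, eBayes with an intensity trend, and Benjamini-Hochberg adjusted p under 0.05 as passing. It has 1 residual degree of freedom and infinite prior degrees of freedom. In the line term the stimulated and nonstimulated arrays of a subline stand in for replicates. No culture or subline was repeated, so its p-values do not measure the spread between cultures or sublines. The fit tests shared terms and not whether the sublines respond differently. The code was tested on simulated data. Ratios of arrays were set against a 3-fold threshold with the higher signal at or above the floor. Other scalings, floors, thresholds (2-fold, 4-fold), a pseudocount of 16, other filters, no trend and a factor left out were tried. Scaling to the median of bright probe sets and raising signals to the floor were chosen after seeing the data. The genes and lists were chosen with earlier results of these data known. Named genes are the 8 genes, list genes that passed or reached 3-fold (up to 5 a list), list genes named as below the floor, and the 5 nearest patterns of genes that span at least 1 on the log2 scale (not given for LCN2, mostly below the floor). CEBPA, CEBPB, CEBPD, CEBPE, TLR4, CACYBP, S100P, S100A5, SLC22A17, PTGDS and SIGLEC5 were named after their values were seen. The number of arrays limits the precision. Python 3.11.15, numpy 2.4.6, pandas 2.3.3 and matplotlib 3.10.9 were used for the rest.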

Additional observations from a re-analysis of the deposited data

Results flagged for a closer look

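Stimulated and nonstimulated arrays differed in opposite directions in the sublines for 5 of the 8 genes, which have 1 array per condition, so the differences were not tested. The log2 NTHi ratio in Siglec-14/THP-1 minus that in Siglec-5/THP-1 was 0.37 for S100A6, 0.25 for S100A8, 0.46 for S100A10, 0.27 for S100A11 and -0.65 for S100A12. The bright probe sets as a whole had medians of opposite sign too, 0.09 in Siglec-14/THP-1 and -0.11 in Siglec-5/THP-1, and 56.6% of 7335 genes bright on all arrays had opposite directions. With the arrays scaled to equal sums, S100A8 had log2 ratios of 0.07 in Siglec-14/THP-1 and 0.03 in Siglec-5/THP-1, and its directions were the same under all 4 other scalings (sums, medians, quantiles, medians of bright probe sets). S100A11 had -0.04 in Siglec-14/THP-1 and -0.11 in Siglec-5/THP-1 at equal sums and -0.02 and -0.07 with quantile normalization, in the same direction, and opposite directions under equal medians (0.11 and -0.08) and equal medians of bright probe sets (0.01 and -0.06). S100A6 (0.06 and -0.11 at equal sums), S100A10 (0.12 and -0.14) and S100A12 (-0.53 and 0.32) kept opposite directions under these 4 scalings, while the mean over probe sets gave S100A6 0.59 and 0.88.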

How the results depend on the processing

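Of 70 values that count the genes under an alternative, 47 stayed within 1.5 times the reported count, and 0 called results changed sign. Of the small differences that were not called, 14 of 192 log2 ratios of single genes, reported at up to 0.20 in size, changed sign under an alternative, and so did 9 of 140 terms, reported at up to 0.04. The widest was the log2 NTHi ratio of S100A6 in Siglec-5/THP-1, -0.17 as reported and 0.88 with the mean over its probe sets. With NTHi in Siglec-14/THP-1, the count of 1 gene at least 3-fold different was 0 with a pseudocount of 16, with the floor at the 75th percentile and with signals raised to the floor. Between the stimulated sublines the count of 2 was 0 with equal sums, equal medians, quantile normalization, equal medians of bright probe sets or a 4-fold threshold, and 1 with the pseudocount, the floor at the 75th percentile or signals raised to the floor. Between the nonstimulated sublines the count of 0 was 1 at 2-fold, S100A10. The count of responses differing at least 3-fold between the sublines, 1, was 0 with the pseudocount and 2 with the mean over a gene's probe sets. In limma, the count of 0 genes passing for NTHi (1 at an unadjusted p under 0.05) was 2 with equal sums or equal medians of bright probe sets and 1 with quantile normalization. The count of 2 for the line term was 4 under the same 3 scalings and 0 without the intensity trend. In the other lists 4 genes passed for NTHi and 13 for line, and 0 and 0 without the trend. Over all probe sets, the 1501 higher and 1217 lower for line were 1777 and 3967 with equal medians, 2512 and 2758 with quantile normalization, 2923 and 2461 with equal medians of bright probe sets and 3115 and 3104 with equal sums. The 220 higher and 74 lower for NTHi were 486 and 131, 353 and 178, 673 and 188, and 600 and 674 in the same order of settings, 159 and 33 among bright probe sets alone, and 0 with the line left out. For both terms 0 passed without the trend, with 1941 for NTHi and 3740 for line at an unadjusted p under 0.05. Of the 192 log2 ratios, 8 moved by more than the SD of probe sets of like brightness. They were ratios of S100A6 and S100A10 with the mean over the gene's probe sets, and the NTHi ratio of LCN2 in Siglec-14/THP-1 with the pseudocount. No ratio moved so far under another scaling of the arrays. Why these settings moved them was not tested. No paired analysis was possible because each condition has 1 array, with no replicate number in the labels. Signals near the floor, such as those of LCN2, limit what can be read from single arrays.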
